A study of Mus musculus with 8 samples.

Results

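The 77 genes described here encode mitochondrial ribosomal proteins. They were chosen by name, as every gene of the deposited table whose symbol starts with Mrpl or Mrps and a digit, with pseudogene entries left out, and they are 77 of 47493 genes. By name, 48 belong to the large and 29 to the small subunit. The 5 pseudogene entries left out reached 2.36 FPKM at most. FPKM is a fragment value divided by the length of the transcript and the depth of the library. All 77 were found under the same name in the GENCODE M21 annotation of GRCm38 (mm10), on 17 chromosomes, and all 77 had a mean of at least 1 FPKM over the 8 libraries, which was the filter for testing.

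RNA was sequenced from endogenous CD8+ T cells of 4 female C57BL/6 mice, aged 6 to 8 weeks. Every mouse carried the B16F10 melanoma line (200000 cells, given into the skin) and had received 300 mg/kg cyclophosphamide on day 3. On day 5 each was given 2000000 Pmel-1 T cells, which carry a transgenic T-cell receptor for a melanoma antigen and the Thy1.1 marker, with 10000 IU of human IL-2 daily for 3 days. The anti-CD4 treatment was 200 μg of the CD4-depleting antibody GK1.5, weekly for 3 weeks from day 10. On day 25, Thy1.1-negative CD8+ T cells from inguinal lymph nodes and spleen were passed over a column after labelling of IL-18Rα, a chain of the interleukin-18 receptor. The retained cells made the 4 IL-18Rαhi-enriched libraries and the cells that passed through made the 4 flow-through libraries. Libraries of the same number in their titles were taken as 1 mouse. Both fractions share the tumor, the transferred cells and every drug. A library without the antibody or without a tumor was not analysed here.

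The mitochondrial ribosome sits inside the mitochondrion and makes the few proteins that the mitochondrial genome encodes, all of them subunits of the respiratory chain or of ATP synthase. Its ribosomal RNAs come from the mitochondrial genome, while its proteins are encoded in the nucleus, made in the cytosol and imported. Part of these proteins have counterparts in bacterial ribosomes and part are found only in mitochondrial ribosomes. The mitochondrially encoded genes are not in the table and were not analysed here.

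Promoter sequences are shown for 4 members on which contrasts below turn. They are the 3 paralogs Mrps18a, Mrps18b and Mrps18c, which did not move together, and Mrpl33, the only member called higher. The 250 bases before their RefSeq starts (RefSeq, build GRCm38.p6) are printed 5′ to 3′ on the strand of the gene, with each ETS core (CCGGAA, on either strand) in capitals.
Mrps18a, chr17:46110754-46111003, + strand: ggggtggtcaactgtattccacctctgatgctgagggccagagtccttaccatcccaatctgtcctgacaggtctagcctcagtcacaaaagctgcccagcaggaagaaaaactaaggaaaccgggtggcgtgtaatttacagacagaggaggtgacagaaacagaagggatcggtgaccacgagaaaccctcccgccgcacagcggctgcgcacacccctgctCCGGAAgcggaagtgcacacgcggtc
Mrps18b, chr17:35916441-35916690, - strand: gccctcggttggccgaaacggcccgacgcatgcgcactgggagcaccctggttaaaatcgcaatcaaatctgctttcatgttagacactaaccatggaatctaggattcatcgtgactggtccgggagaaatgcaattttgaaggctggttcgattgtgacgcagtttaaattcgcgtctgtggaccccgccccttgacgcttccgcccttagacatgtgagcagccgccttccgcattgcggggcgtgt
Mrps18c, chr5:100798509-100798758, + strand: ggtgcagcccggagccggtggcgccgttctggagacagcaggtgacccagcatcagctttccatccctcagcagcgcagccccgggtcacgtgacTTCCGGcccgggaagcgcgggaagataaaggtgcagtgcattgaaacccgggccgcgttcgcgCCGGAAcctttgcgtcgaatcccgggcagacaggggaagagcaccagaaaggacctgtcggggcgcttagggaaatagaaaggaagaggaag
Mrpl33, chr5:31613701-31613950, + strand: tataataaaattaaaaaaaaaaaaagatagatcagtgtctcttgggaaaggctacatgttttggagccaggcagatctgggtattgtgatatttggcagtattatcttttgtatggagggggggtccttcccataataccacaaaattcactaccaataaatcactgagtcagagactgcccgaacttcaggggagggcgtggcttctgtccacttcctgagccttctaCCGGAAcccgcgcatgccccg

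The ETS core, a sequence that the factor GABP and its relatives can bind, stood in the 300-base window (250 bases before to 50 after the start) of 39 of 68 members with an entry, or 57.4%. Of 8742 genes that were tested and had an entry 33.3% held it, and of all 27025 genes with an entry 16.7%. In Mrps18b the match lies in the 50 bases after the start, which are not printed. Among members called lower in the enriched fraction 7 of 16 held it (43.8%), and among the others 32 of 52 (61.5%). AAGATGG, the core of the YY1 site, stood in 19.1% of members and 8.8% of the genes tested. GCGCATG, a part of the NRF1 site that lies in the windows of Mrps18b and Mrpl33, stood in 11.8% and 8.3%. The GC box GGGCGG was in 34 of 68 members and 68.8% of the genes tested, CCAAT in 39.7% and 43.2%, TATAAA in 7.4% and 8.3%, and the E-box CACGTG in 7.4% and 12.2%. Each motif was searched on both strands, and the motifs may overlap each other. The 5 members with an E-box were Mrpl2, Mrpl20, Mrpl36, Mrpl37 and Mrps18c, of which 3 were called lower. These matches describe the letters of the windows and are not sites of binding.

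The selection was checked first. *Il18r1*, the gene of IL-18Rα, rose from 30.6 ± 6.96 FPKM (SD, n = 4) to 111 ± 3.87 FPKM in the enriched fraction (adjusted p = 2.9e-04), and *Il18rap*, the accessory chain, rose from 10.9 ± 3.35 to 37.0 ± 3.86 FPKM (adjusted p = 0.00162). The depth, estimated from the smallest values since FPKM holds no counts, was 14614629 to 18210949 fragments, and the fractions overlapped in it. At that depth the member with the fewest fragments, *Mrpl11*, had an estimated 83 to 183 per library, and the median member 491 to 852, a counting error of 3.43 to 4.51%. The 8 genes of CD8 T-cell identity (*Cd3d*, *Cd8a* and others) were present in every library, at a summed 1337, 2480.0, 2144 and 2548 FPKM in the flow-through libraries of mice 1 to 4 and 2542 to 2724 FPKM after enrichment. Flow-through library 1 stood apart with the lowest sum. The 8 erythroid genes summed to 2766, 870.2, 1449 and 1080.1 FPKM in flow-through libraries 1 to 4 and to 1292, 196, 574 and 225 FPKM in their enriched partners. All 4 mice had less of them in the enriched fraction.

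More of the mitochondrial ribosomal protein genes were lower than higher in the IL-18Rαhi-enriched fraction. With limma on log2(FPKM + 1) and Benjamini-Hochberg adjustment over 12166 genes, 20 of 77 members (26%) were lower at an adjusted p under 0.05, beside 13.7% of all genes tested. Only *Mrpl33* was higher (1.3% of members, beside 14.1% of all genes tested). The log2 fold change (enriched over flow-through) was below 0 in 66 of 77 members (85.7%), against 52% of all genes tested, with a median of -0.26 against -0.02. The quartiles were -0.40 and -0.12, and the values ran from -0.78 to 0.36, so the differences were modest. Of the members, 15 lay between -0.1 and 0.1. The call rests on a narrow margin for part of the list, since the last member called had an adjusted p of 0.0494 and the first not called 0.0518.

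**Figure D1:**
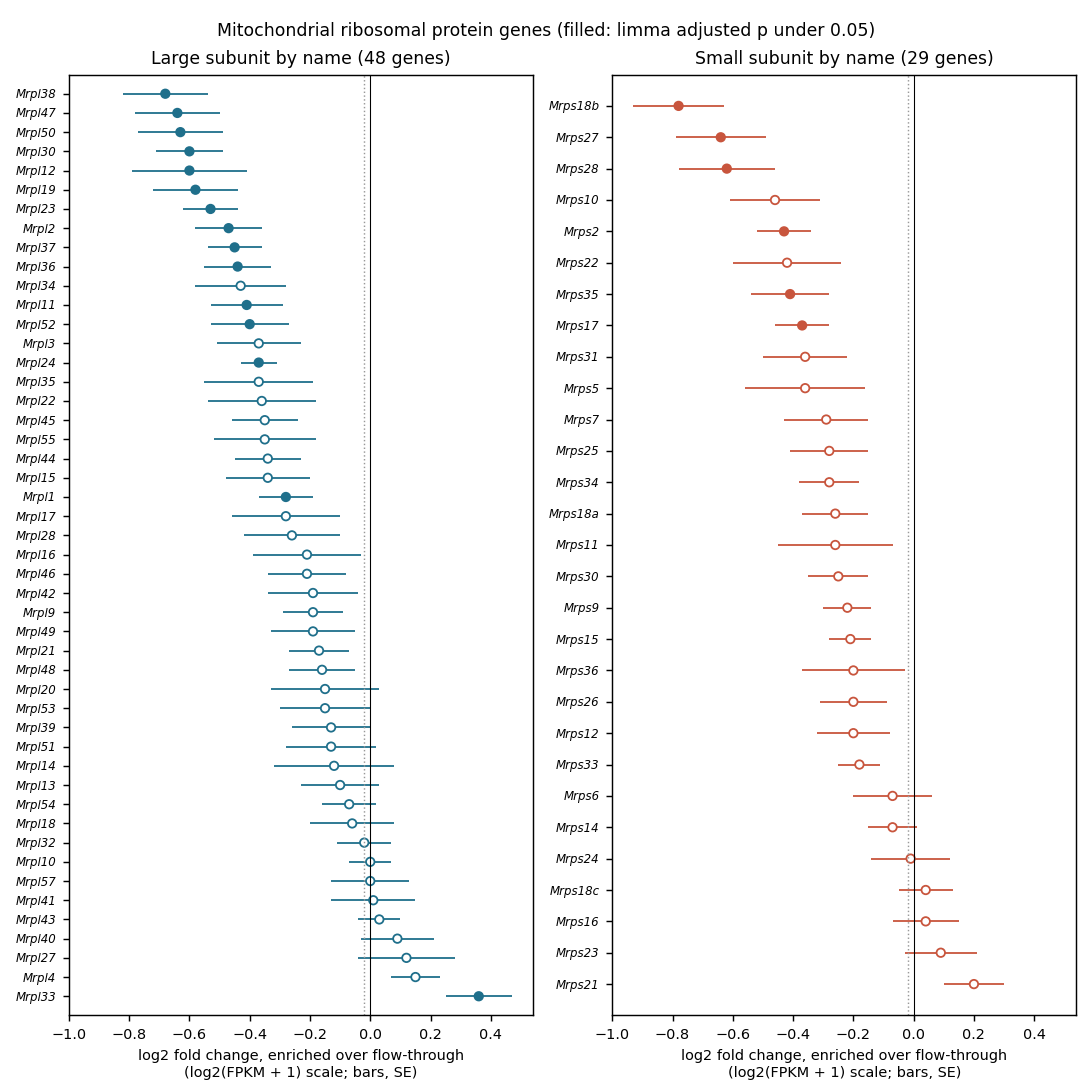
Log2 fold change of each of the 77 members (x axis, enriched over flow-through on the log2(FPKM + 1) scale, bars are SE, n = 4 mice), sorted within the large and the small subunit. Filled points passed the limma adjusted p of 0.05, the dotted line is the median of all genes tested (-0.02), and most points lie left of it in both panels.

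Since libraries of the same number were taken as 1 mouse, the members were also read mouse by mouse. In mice 1, 2, 3 and 4, 68, 56, 69 and 55 of 77 members were lower in the enriched library, with median log2 differences of -0.36, -0.14, -0.36 and -0.17, while the median of all genes tested lay between -0.02 and -0.01. Mice 1 and 3 thus showed the larger shift. Lower in 4 of 4 mice were 46 members (59.7%), beside 30.6% of all genes tested. With the mouse as a replicate block in the same limma model, 39 members (50.6%) were lower, beside 22.7% of all genes tested, and *Mrpl33* alone was higher, beside 22.2%. Without any overlap between the 4 libraries of each fraction, 23 members were lower (29.9%, beside 15.9% of all genes tested) and 1 was higher (1.3%, beside 16.4%). The summed level of the 77 members was 5067, 3795, 4587 and 3862 FPKM in the flow-through libraries and 4118, 3534, 3718 and 3473 FPKM in the enriched, lower in 4 of 4 mice with overlapping ranges.

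The member level moved with other properties of the libraries. Flow-through library 1 was the highest of its fraction for 63 of 77 members and flow-through library 3 for 12. These same libraries had the most erythroid RNA and the least of the CD8 T-cell genes. They also had the most RNA of the proliferation genes (1624 and 1314 FPKM, against 1044 and 958 FPKM in flow-through libraries 2 and 4). In the enriched fraction, library 1 was the highest for 60 of 77 members. It also had the most RNA of the erythroid, the CD8 T-cell (2724 FPKM) and the proliferation genes (1956 FPKM). Of the erythroid genes all 8 had a log2 fold change below 0 and 3 of 8 were called lower, and 7 with the mouse as a block. None was at 0 in the table. The marker lists of myeloid cells (115 to 393 FPKM against 379 to 889), NK cells (20.9 to 43.5 against 86.1 to 178), γδ T cells (50.9 to 77.5 against 70.5 to 144) and CD4 T cells (2.11 to 4.57 against 16.6 to 22.6) had more summed RNA in the enriched fraction in 4 of 4 mice, with 4 of 6, 4 of 5, 2 of 5 and 2 of 2 genes called higher. The sums of B-cell (24.4 to 62.9 against 40.4 to 81.9) and plasma-cell genes (330.5 to 1322 against 598 to 1584) were also higher in 4 of 4 mice, with 1 of 5 and 0 of 4 genes called higher, and 2 and 4 with the mouse as a block. That of the neutrophil precursor genes (566 to 3271 against 541 to 3186) was lower in 4 of 4 mice, with none of its 4 genes called, and 1 higher and 1 lower with the block. The ranges of the fractions overlapped for the erythroid, CD8 T-cell, proliferation, myeloid, γδ T-cell, B-cell, plasma-cell and neutrophil precursor lists. Of the 5 melanoma genes, 4 were at 0 in every library. In RNA of a mixed cell suspension, fewer cells of a type and less RNA per cell cannot be told apart. The part of these cells, or of proliferation, in the member levels was not tested.

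When the values were shifted so that the 8 CD8 T-cell genes had the same mean in every library, the median of all genes tested moved from -0.02 to -0.36 and that of the members from -0.26 to -0.60. The scaling adds the same -0.34 to the log2 fold change of every gene, so it leaves the distance of the members from all genes at -0.24 by construction. Under this scaling 2 members were called lower (2.60%, below the 6.86% of all genes tested). With the mouse as a block 26 were (33.8%, above the 16.7% of all genes tested). No member was called higher under it, with or without the block. The plot of member and marker levels shows each library. Flow-through libraries 1 and 3, at geometric means of 54.2 and 49.3 FPKM, lie above the other 6, which span 35.7 to 42.3 FPKM. Without flow-through library 1, 16 members were called lower (20.8%, beside 12.9% of all genes tested), and without flow-through library 3, 11 (14.3%, beside 7.71%).

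**Figure D2:**
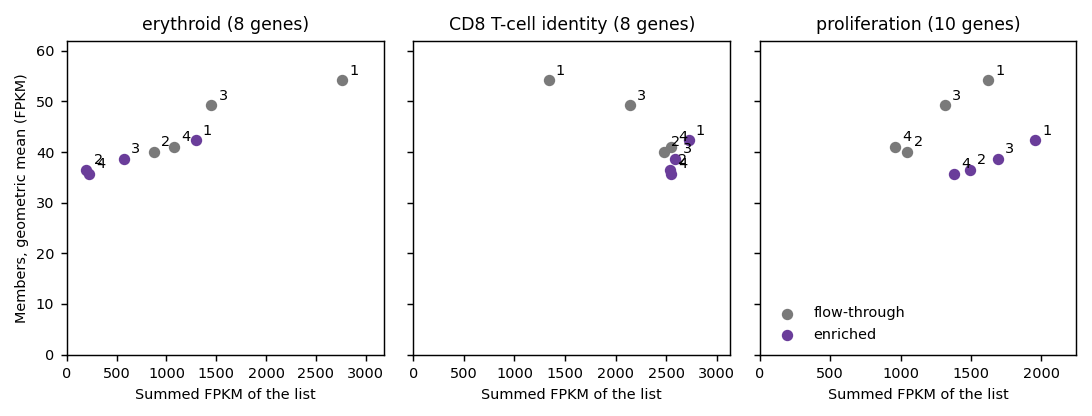
Geometric mean of the 77 members in each library (y axis, FPKM) against the summed FPKM of the erythroid, CD8 T-cell identity and proliferation lists (x axes). Points are single libraries, grey for flow-through and violet for enriched, numbered by mouse. Flow-through libraries 1 and 3 lie highest, with 2766 and 1449 FPKM of erythroid and 1624 and 1314 FPKM of proliferation genes.

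The members were set beside the genes that bracket them in function. Of 79 cytosolic ribosomal protein genes tested, 74 were lower (93.7%), without and with the block, and their median log2 fold change was -0.42. Of 10 genes of proliferation 4 were higher and none was lower, with summed levels of 958 to 1624 FPKM in the flow-through against 1382 to 1956 FPKM. Under the T-cell scaling none of the 10 was called.

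**Figure D3:**
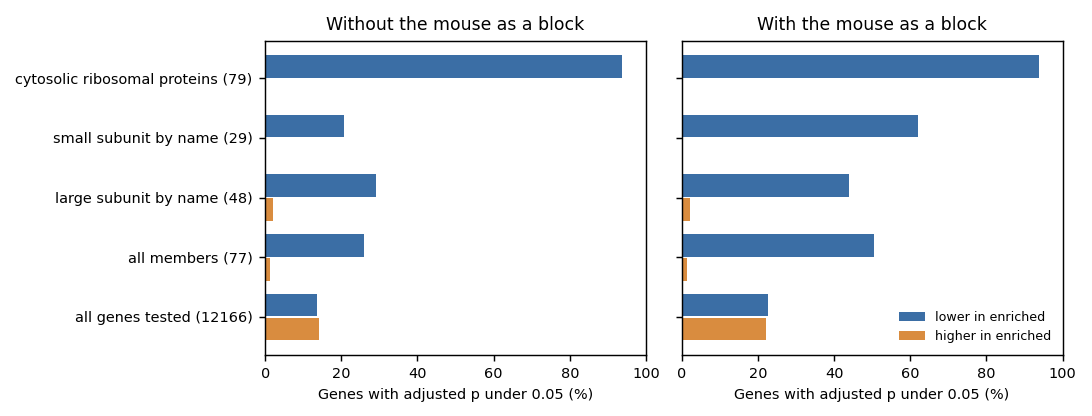
Share of genes with a limma adjusted p under 0.05 (x axis, percent), lower in blue and higher in orange, without and with the mouse as a block, with the number of genes in brackets. Members called lower made 26% and 50.6%, all genes tested 13.7% and 22.7%, and members called higher 1.3% in both.

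The large and the small subunit had nearly the same median difference between the fractions, which was described and not tested. Of 48 large-subunit genes 14 were lower (29.2%) and 1 higher, with a median log2 fold change of -0.24. Of 29 small-subunit genes 6 were lower (20.7%) and none higher, with a median of -0.26. Of all genes tested 13.7% were lower. With the mouse as a block 21 of 48 (43.8%) and 18 of 29 (62.1%) were lower, beside 22.7% of all genes tested. The order of the shares was thus turned around, and no order between the subunits was read from them. The difference of the medians (large minus small) was -0.08, 0.02, 0.02 and 0.04 in mice 1 to 4. The geometric mean of the large subunit was 1.05 to 1.09 times that of the small subunit in the flow-through and 1.06 to 1.09 times in the enriched libraries, slightly higher in the enriched library of 4 of 4 mice. Summed FPKM gave a ratio of large to small of 1.97, 1.95, 1.95 and 1.90 in the flow-through and 1.89, 1.87, 1.92 and 1.85 in the enriched fraction, lower in 4 of 4 mice. Without *Mrpl52* alone, which made 8.69 to 10.6% of the large-subunit sum, the ratio was 1.76, 1.76, 1.75 and 1.71 in flow-through libraries and 1.72, 1.71, 1.74 and 1.68 in enriched libraries, still lower in 4 of 4 mice. The ratio of geometric means and the ratio of sums therefore differed in direction.

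**Figure D4:**
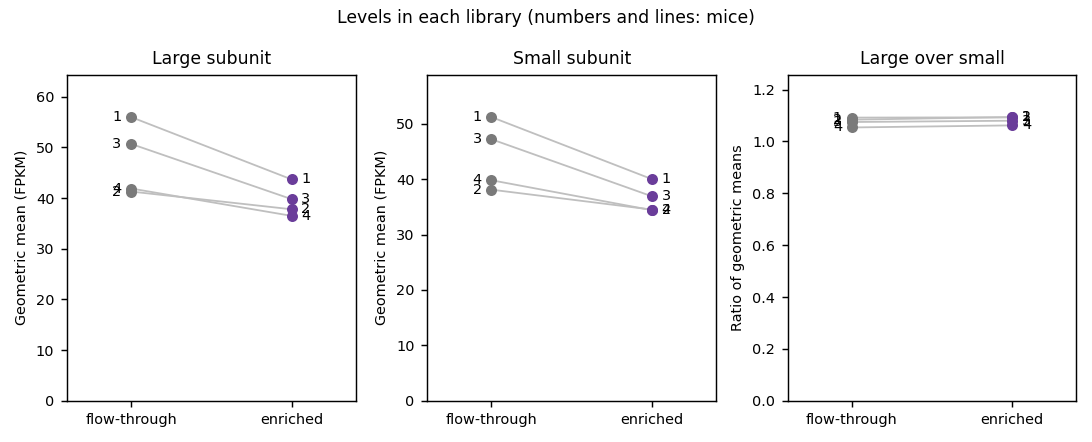
Geometric mean FPKM of the large and small subunit genes and their ratio (y axes, from 0) in the flow-through and enriched library of each mouse, joined by lines. Both subunits are lower in all 4 mice and the ratio stays between 1.05 and 1.09.

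A name does not always give the place in the ribosome. Mrps18a (mL66) and Mrps30 (mL65) sit in the large subunit, and Mrps36 is known as a part of the 2-oxoglutarate dehydrogenase complex. Counted by structure, 14 of 50 large-subunit genes were lower (28%) and 1 was higher (median -0.25). Of 26 small-subunit genes 6 were lower (23.1%, median -0.27), beside 13.7% of all genes tested. *Mrps36* itself had a log2 fold change of -0.20 ± 0.17 (SE), adjusted p = 0.422, and 0.0364 with the mouse as a block. *Mrps30* was at 32.1 ± 3.30 and 26.8 ± 2.54 FPKM (SD), with a log2 fold change of -0.25 ± 0.10 and an adjusted p of 0.0942, and 0.0183 with the block. Of 46 members with a counterpart in bacterial ribosomes 13 were lower (28.3%) and 1 was higher (median -0.27). Of 30 found in mitochondrial ribosomes only 7 were lower (23.3%, median -0.23), beside the same 13.7%. These 2 groups were not compared by a test.

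The small subunit reads the messenger RNA, and its largest fall was that of *Mrps18b*, the gene of a mitochondria-specific protein of the small subunit (mS40). It was at 74.7, 49.7, 65.5 and 48.6 FPKM in the flow-through libraries of mice 1 to 4, against 33.7, 33.2, 39.4 and 29.7 FPKM in their IL-18Rαhi-enriched libraries. The fractions did not overlap (log2 fold change of -0.78 ± 0.15, SE, with adjusted p = 0.00830), and the enriched mean was 0.570 times that of the flow-through. Its gene (chr17:35910379-35916389, minus strand) overlaps the antisense gene Gm16279, and Cufflinks at its default settings does not use strand. *Mrps27*, a pentatricopeptide repeat protein, fell in 4 of 4 mice (log2 fold change of -0.64 ± 0.15, SE, with adjusted p = 0.0150, from 23.5 ± 4.90 to 14.5 ± 1.68 FPKM, SD). *Mrps28*, related to bacterial S1, fell from 66.5 ± 14.9 to 42.4 ± 5.09 FPKM (log2 fold change of -0.62 ± 0.16, SE, with adjusted p = 0.0224). *Mrps2*, *Mrps35* and *Mrps17* were the other small-subunit genes called lower, with log2 fold changes of -0.43, -0.41 and -0.37. *Mrps35* was the exception among them, lower in 3 of 4 mice with overlapping fractions.

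At the other end of the small subunit were *Mrps21* and *Mrps16*, which belong to the most abundant members. *Mrps21* was at 124, 96.7, 103 and 109 FPKM in the flow-through libraries of mice 1 to 4, against 142, 125, 110.4 and 120.0 FPKM in their IL-18Rαhi-enriched libraries. It was higher in 4 of 4 mice without passing the test (log2 fold change of 0.20 ± 0.10, SE, with adjusted p = 0.183). *Mrps16* had means of 157 ± 21.6 and 162 ± 15.2 FPKM (log2 fold change 0.04, adjusted p = 0.790). Under the T-cell scaling, which lowers every gene alike, they were at -0.14 and -0.29. *Mrps31*, among the least abundant members at 12.3 ± 2.11 and 9.32 ± 1.26 FPKM, had a log2 fold change of -0.36 (adjusted p = 0.0758, and 0.0131 with the block).

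The 3 paralogs of bacterial S18 were compared within each library, which needs no scaling between libraries. Each mammalian ribosome has room for them at separate places: Mrps18c takes that of bacterial S18, Mrps18b has another place in the small subunit, and Mrps18a lies in the large subunit. *Mrps18a* was at 62.3, 43.9, 57.1 and 50.6 FPKM in the flow-through libraries of mice 1 to 4, against 46.9, 43.0, 44.5 and 41.7 FPKM in their IL-18Rαhi-enriched libraries. *Mrps18c* was at 67.2, 51.0, 57.2 and 59.0 FPKM in the flow-through libraries of mice 1 to 4, against 64.1, 59.0, 58.5 and 59.3 FPKM in their IL-18Rαhi-enriched libraries. The first was lower in 4 of 4 mice and the second in 1 of 4 (log2 fold changes -0.26 and 0.04, adjusted p = 0.105 and 0.742, and 0.0339 and 0.630 with the block), and under the T-cell scaling *Mrps18c* was at -0.29. The ratio of *Mrps18b* to *Mrps18c* was 1.11, 0.975, 1.15 and 0.823 in flow-through libraries and 0.525, 0.562, 0.673 and 0.501 in enriched libraries. It was lower in every mouse, with no overlap, and the difference of the log2 ratio was -0.84. The ratio of *Mrps18b* to *Mrps18a* went from 1.11 ± 0.104 to 0.772 ± 0.0807, and that of *Mrps18a* to *Mrps18c* from 0.911 ± 0.0661 to 0.731 ± 0.0230 (SD, n = 4). Among all 70 ways to divide the 8 libraries into 4 and 4 (exact permutation, two-sided), each of these 3 ratios gave p = 0.0286, which is the smallest possible, and 0.0286 after adjustment over the 3. That test ignores that the fractions of a mouse are paired. Exchanging labels within mice only, which allows 16 arrangements, gave the smallest possible exact p = 0.125 for each, so the paired design cannot reach 0.05 here. The paralogs were picked with earlier results known. These p-values say only that each ratio did not overlap between the fractions and was lower in 4 of 4 mice. The 3 ratios share genes and are not independent of each other. The genes are distinct in place: *Mrps18a* and *Mrps18b* lie on chromosome 17 and *Mrps18c* on chromosome 5.

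**Figure D5:**
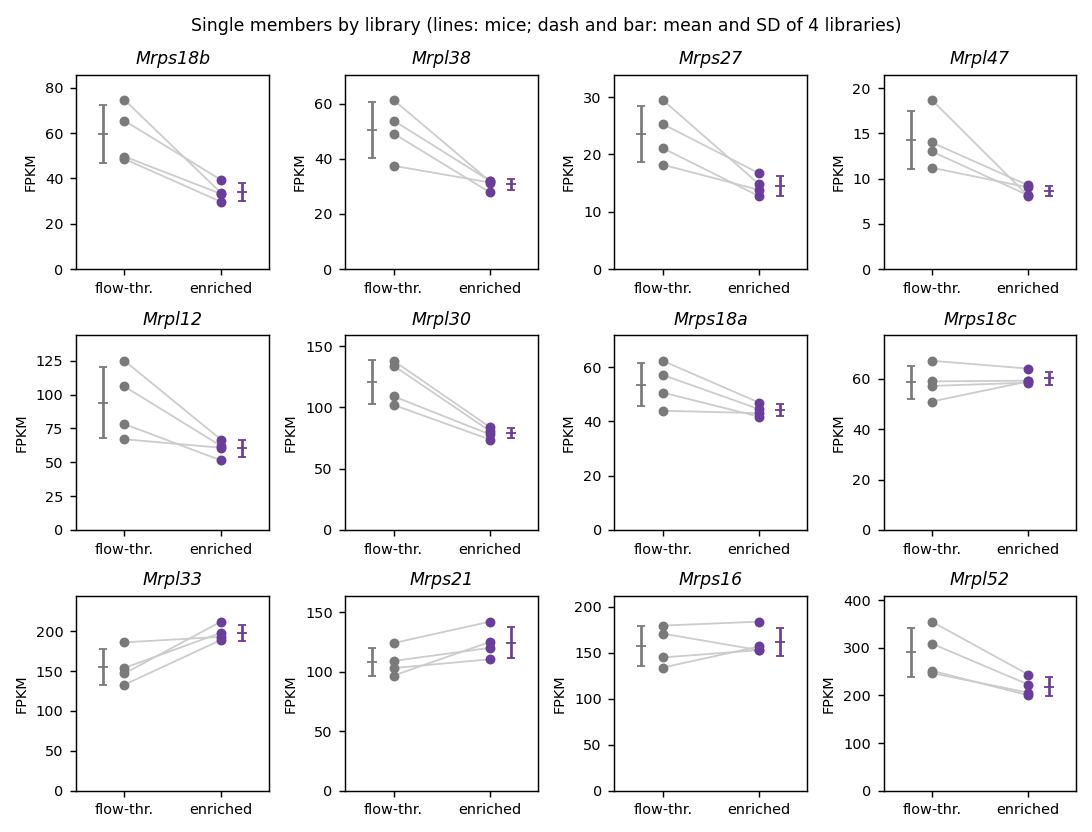
FPKM (y axes, from 0) of 12 members in the flow-through and enriched library of each mouse, joined by lines, with mean and SD (n = 4). The lines of Mrps18b fall from 48.6-74.7 to 29.7-39.4 FPKM, those of Mrps18c stay between 51.0 and 67.2, and those of Mrpl33 rise.

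The large subunit forms the peptide bond, and its falls were spread over its parts. At the central protuberance, *Mrpl38* fell most. It was at 61.4, 37.5, 53.9 and 49.2 FPKM in the flow-through libraries of mice 1 to 4, against 31.8, 31.4, 32.0 and 27.8 FPKM in their IL-18Rαhi-enriched libraries. All 4 enriched values lay below the lowest flow-through value (log2 fold change of -0.68 ± 0.14, SE, with adjusted p = 0.0101). *Mrpl52*, which also belongs to the central protuberance and was the most abundant member, fell from 291 ± 51.2 to 218 ± 19.4 FPKM (adjusted p = 0.0494), a call kept in 2 of the 8 leave-one-out fits. *Mrpl40*, another protein of that region, was not lower in any mouse (40.7 ± 5.81 and 43.2 ± 4.05 FPKM).

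Around the exit of the peptide tunnel, *Mrpl47*, *Mrpl23* and *Mrpl24* were lower in 4 of 4 mice without overlap. *Mrpl47* was at 14.0, 11.2, 18.7 and 13.0 FPKM in the flow-through libraries of mice 1 to 4, against 9.25, 9.03, 8.08 and 8.15 FPKM in their IL-18Rαhi-enriched libraries. This was among the lowest levels of all members (log2 fold change of -0.64 ± 0.14, SE, with adjusted p = 0.0125), and its exons overlap those of *Actl6a* and *Ndufb5* on the other strand, whose reads cannot be told from its own where strand was not used. *Mrpl23* fell from 69.8 ± 8.25 to 47.9 ± 1.92 FPKM (log2 fold change of -0.53 ± 0.09, SE, with adjusted p = 0.00557). *Mrpl24* had a smaller but even difference, from 94.9 ± 4.01 to 73.2 ± 2.48 FPKM (log2 fold change of -0.37 ± 0.06, SE, with adjusted p = 0.00489), and overlaps *Rrnad1* on the other strand. *Mrpl45*, which anchors the ribosome at the inner membrane, had no overlap between the fractions and missed the threshold (-0.35 ± 0.11, adjusted p = 0.0543, and 0.00929 with the block).

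The stalks bind the factors of translation. *Mrpl12*, the L7/L12 protein of the mitochondrial ribosome, was at 125, 67.0, 106 and 78.2 FPKM in the flow-through libraries of mice 1 to 4, against 66.8, 60.7, 62.1 and 51.4 FPKM in their IL-18Rαhi-enriched libraries. The differences of mice 1 and 3 were the largest (log2 fold change of -0.60 ± 0.19, SE, with adjusted p = 0.0462), and the call was kept in 2 of the 8 leave-one-out fits. *Mrpl11*, at the base of that stalk, fell from 12.9 ± 1.99 to 9.44 ± 0.980 FPKM (adjusted p = 0.0357), while *Mrpl10*, which holds L7/L12, was at 45.3 ± 2.29 and 45.2 ± 1.77 FPKM. Neighbouring parts of a stalk therefore had unlike differences. *Mrpl1*, the L1 stalk protein and the member of the lowest level, went from 11.6 ± 1.08 to 9.34 ± 0.717 FPKM (adjusted p = 0.0486). The calls of *Mrpl11* and *Mrpl1* were kept in 3 and 1 of the 8 leave-one-out fits, and both were lost with no filter and under the T-cell scaling, that of *Mrpl1* also under the median-ratio scaling.

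Of the remaining large-subunit genes, *Mrpl50*, *Mrpl30* and *Mrpl19* were lower in every mouse without overlap. *Mrpl30* was at 134, 102, 138 and 109 FPKM in the flow-through libraries of mice 1 to 4, against 80.6, 73.7, 83.8 and 77.9 FPKM in their IL-18Rαhi-enriched libraries. It passed the test (log2 fold change of -0.60 ± 0.11, SE, with adjusted p = 0.00650). *Mrpl50* fell from 23.5 ± 4.65 to 14.7 ± 1.31 FPKM (log2 fold change of -0.63 ± 0.14, SE, with adjusted p = 0.0119), and *Mrpl19* from 19.3 ± 2.44 to 12.6 ± 2.09 FPKM (log2 fold change of -0.58 ± 0.14, SE, with adjusted p = 0.0161). The exons of *Mrpl19* overlap those of *Gcfc2* on the other strand.

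*Mrpl33*, a small protein with a bacterial counterpart, was the only member called higher. It was among the 4 members that were higher in 4 of 4 mice. It was at 147, 186, 154 and 133 FPKM in the flow-through libraries of mice 1 to 4, against 212, 193, 198 and 189 FPKM in their IL-18Rαhi-enriched libraries. The fractions did not overlap, though the flow-through value of mouse 2 came close to the enriched values (log2 fold change of 0.36 ± 0.11, SE, with adjusted p = 0.0344). The call was kept in 1 of the 8 leave-one-out fits, and under the T-cell scaling its log2 fold change was 0.02, as the shift common to all genes gives. *Mrpl4* (63.7 ± 6.63 and 70.6 ± 2.82 FPKM, adjusted p = 0.215) and *Mrpl27*, which lies by the peptidyl transferase centre (43.9 ± 9.33 and 47.5 ± 6.56 FPKM, adjusted p = 0.591), had positive differences that did not pass, and with the same shift were at -0.19 and -0.21.

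Levels differed widely between members. Per kilobase, mean levels over the 8 libraries ran from 10.5 FPKM for *Mrpl1* to 254 FPKM for *Mrpl52*, with a median of 45.6. The next most abundant after *Mrpl52* were *Mrpl33* (177), *Mrps16* (159.6) and *Mrps21* (116), and the least abundant after *Mrpl1* were *Mrps31*, *Mrpl11* and *Mrpl47*. Over members, Spearman's rho between median transcript length and mean FPKM was -0.44 (n = 77), against -0.22 over all genes tested, and between length and log2 fold change -0.22 against 0.02. The 39 members with shorter transcripts had a median log2 fold change of -0.18, with 9 lower and 1 higher, and the 38 with longer transcripts -0.28, with 11 lower. These are descriptions over genes, which share the libraries.

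Many members lie head to head with a neighbour. A gene on the other strand that starts within 500 bases stood beside 25 of 77 members (32.5%), against 14.7% of 10924 protein-coding genes tested. *Mrps11* and *Mrpl46* form such a pair of members, with starts 412 bases apart and log2 fold changes of -0.26 and -0.21. Their exons share 173 bases on opposite strands. Reads there cannot be told apart where strand was not used, so the 2 differences are not fully separate. *Mrps18b* starts 45 bases from *Ppp1r10*, whose log2 fold change was -0.10 ± 0.08, and *Mrpl30* starts 66 bases from *Mitd1* (0.05 ± 0.07). *Mrps27* starts 81 bases from *Ptcd2*, which was lower too (-0.32 ± 0.10, adjusted p = 0.0483). *Mrpl36* starts 29 bases from *Ndufs6*, a subunit of complex I, with log2 fold changes of -0.44 and -0.06. *Mrps18c* starts 29 bases from *Helq* (0.10 ± 0.15). A shared start region thus went with like and with unlike differences.

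The ribosome also needs proteins with other names, factors and assembly proteins. In each of the 6 lists, no gene was called higher without the block, beside 14.1% of all genes tested. The counts of lower genes below stand beside 13.7% of all genes tested without the block and 22.7% with it. In a list this small, a count near that share gives no result for the list. Of 6 ribosomal proteins under other names 1 was lower, *Ptcd3* (mS39, from 43.2 ± 7.96 to 28.7 ± 2.64 FPKM, adjusted p = 0.0178), and with the block 2. *Dap3*, a GTP-binding protein of the small subunit, missed the threshold (-0.41 ± 0.14, adjusted p = 0.0520, and 0.00209 with the block), and *Ict1*, a peptidyl-tRNA hydrolase built into the large subunit, was lower in 0 of 4 mice (0.15 ± 0.07). Of 11 translation factors 2 were lower, *Mrrf*, the recycling factor (-0.65 ± 0.16, adjusted p = 0.0186), and *Mtif2*, the initiation factor (-0.33 ± 0.10, adjusted p = 0.0436), and 5 were lower with the block.

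Of 25 genes of assembly and ribosomal RNA modification 10 were lower, with a median log2 fold change of -0.23. The largest falls were those of *Rnmtl1*, an rRNA methyltransferase (from 10.9 ± 2.64 to 5.58 ± 0.979 FPKM, adjusted p = 0.00987), *Wbscr16* (-0.74, adjusted p = 0.00643), the GTPase *Noa1* (-0.71, adjusted p = 0.0225) and *Fastkd2* (-0.68, adjusted p = 0.0175). The aminoacyl-tRNA synthetases of mitochondria load transfer RNAs with amino acids, and 9 of 17 were lower, with a median of -0.46 and all 17 below 0. With the block 15 of 17 were lower. *Ears2* (-0.67, adjusted p = 0.00830), *Vars2* (-0.63, adjusted p = 0.0202) and *Yars2* (-0.61, adjusted p = 0.0284) were among them. *Lars2* fell from 910.0 ± 287 to 513 ± 91.6 FPKM (adjusted p = 0.0318), and its level stood apart from the other 16 synthetases, of which *Tars2* was the highest at 44.0 FPKM in the flow-through.

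Of 10 genes of mitochondrial DNA transcription and RNA stability 5 were lower, among them *Peo1*, the helicase Twinkle (from 11.8 ± 2.78 to 5.64 ± 0.671 FPKM, adjusted p = 0.00492), the elongation factor *Tefm* (-0.72, adjusted p = 0.00309), *Lrpprc* (-0.63, adjusted p = 0.0157) and the transcription factor *Tfb2m* (-0.46, adjusted p = 0.0135). *Tfam*, which packs mitochondrial DNA, was at 36.1 ± 4.16 and 34.2 ± 5.10 FPKM. Of 9 regulators tested 3 were lower. *Myc*, which drives growth genes, fell from 102 ± 4.70 to 42.2 ± 3.88 FPKM (-1.26 ± 0.08, adjusted p = 2.0e-04), and the coactivators *Pprc1* (-0.66, adjusted p = 0.0211) and *Ppargc1b* (-0.56, adjusted p = 0.0405) fell too. Of these, the calls of *Pprc1* and *Ppargc1b* were kept in 4 and 2 of the 8 leave-one-out fits, and that of *Ppargc1b* was lost with no filter. Among the other lists, the calls of *Lars2*, *Yars2* and *Mtif2* were kept in 4, 4 and 2 of these 8 fits. *Gabpa* (22.5 ± 2.30 and 24.1 ± 0.736 FPKM), *Nrf1* (26.9 ± 2.68 and 30.7 ± 2.44) and *Yy1* (40.1 ± 2.67 and 36.9 ± 3.88), whose sites were searched above, did not pass the test. *Sp1*, the factor of the GC box, was at 21.3 ± 0.610 and 25.1 ± 2.57 FPKM. It did not pass either (adjusted p = 0.0831) but was called higher with the block (adjusted p = 0.0412). Under the T-cell scaling the counts of lower genes fell to 0, 0, 5, 2, 2 and 2 in the order of the 6 lists, beside 6.86% of all genes tested.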

How the data were processed

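Poly(A) RNA gave stranded paired-end libraries. The authors discarded low-quality reads, mapped the rest to mm10 with TopHat (version not given in the sources used here) and deposited FPKM values from Cufflinks 2.1.1 with multi-read and bias correction, other options at default. These do not use strand, so overlapping genes are uncertain, and the annotation release was not given.

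Deposited FPKM values were tested with limma 3.58.1 (R 4.3.3) on log2(FPKM + 1) with a variance trend, over the 12166 genes whose mean reached 1 FPKM, without a block for the mouse; the log2 scale understates changes of low genes. P-values were adjusted by Benjamini-Hochberg at 0.05. Libraries were paired by the number in their titles, which do not name the mouse. Deviations of same-numbered libraries correlated at 0.66, 0.589, 0.308 and 0.471, and those of other pairs at -0.6 to 0.412. The highest of the latter, flow-through 2 with enriched 4, lay above that of pair 3. The mouse by this number was used as a replicate block in an alternative (39 members lower). On simulated data for this comparison (12166 genes), the fit called 88 of 100 genes changed by 1.5, 31 of 100 changed by 0.5 (log2) and 9 of 11966 unchanged ones. There each gene varied on its own, while here libraries moved many genes together, so these rates may not carry over. Ratios used exact permutation over libraries and, added after seeing the data, within mice. Named genes were the 10 largest falls, the 4 largest rises, the 4 highest and 4 lowest levels, paralogs and misnamed genes, and up to 4 called genes per list; *Mrpl10*, *Mrpl24*, *Mrpl40*, *Mrpl45*, *Mrps2*, *Mrps17*, *Mrps35*, *Mrpl36*, *Mrps11*, *Mrpl46*, *Dap3*, *Ict1*, *Tars2*, *Tfam* and the regulators not called were named after their values were seen. Members and lists were chosen with earlier results of these data known. Other alternatives were a pseudocount of 0.1, no filter, a mean of 5 FPKM, 2 scalings and leaving out each library.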

Additional observations from a re-analysis of the deposited data

Results flagged for a closer look

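For 10 of 154 groups of 4 libraries (77 members in each fraction), the highest or lowest library lay far from its 3 fellows under Dixon's gap criterion, where chance gives about 7.7. In 6 cases enriched library 1 was high: Mrps9 at 37.5 FPKM (others 33.3 to 33.9), Mrps18c at 64.1 (58.5 to 59.3), Mrpl51 at 79.0 (62.6 to 64.6), Mrpl34 at 86.3 (61.1 to 64.4), Mrps16 at 184 (153 to 157) and Mrpl36 at 72.9 (61.2 to 63.1). In 3 cases enriched library 4 was low: Mrps14 at 65.9 FPKM (others 74.6 to 75.3), Mrpl23 at 45.0 (48.6 to 49.1) and Mrpl38 at 27.8 (31.4 to 32.0). Mrpl43 was high in enriched library 2 at 44.9 FPKM (others 40.9 to 41.5). No flow-through library was among them. Enriched library 1 also had the highest summed erythroid (1292 FPKM), CD8 T-cell (2724 FPKM) and proliferation levels (1956 FPKM) of its fraction. The part of each in these values was not tested.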

How the results depend on the processing

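The count of 20 members lower was 39 with the replicate block and 2 under the T-cell scaling (2.60%, below the 6.86% of all genes tested). It was 11 to 26 when a library was left out. It was 11 (14.3%) without flow-through replicate 3 (7.71% of all genes tested) or enriched replicate 4 (8.01%), 13 (16.9%) without enriched replicate 2 (7.89%) and 15 (19.5%) with no filter (5.63%), beside 13.7% of all genes in the reported fit, so fewer genes of any kind were called lower there. Of the members called, 10 were called in all 8 such fits. The count of 1 member higher was 0 with no filter and under the T-cell scaling with or without the replicate block, and 0 to 1 when a library was left out. The pseudocount of 0.1, a mean of at least 5 FPKM and median-ratio scaling kept both counts within 1.5 times. Large minus small subunit became -0.05 as a log2 ratio of summed FPKM, and -0.03 without *Mrpl52*, an alternative chosen after seeing the data. Under the T-cell scaling, with and without the block, which adds -0.34 to every gene, values were below 0 for *Mrps21* (-0.14), *Mrpl4* (-0.19), *Mrpl27* (-0.21), *Mrps16* (-0.29) and *Mrps18c* (-0.29). Leaving out a library, *Mrps18c* ran from -0.02 (flow-through 2 left out) to 0.11 and *Mrps16* from -0.03 (flow-through 4 left out) to 0.11, with -0.02 where enriched 1 was left out. No filter gave 5 of 17 synthetases and 1 of 11 translation factors lower, beside 5.63% of all genes tested. The causes were not tested. Depth was only estimated, and with 4 mice a member missing the threshold is not shown to be unchanged.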
